A study of Ascaris suum with 62 samples.

Results

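CENP-A in the testis of the pig roundworm *Ascaris suum* was compared between 2 peak lists, testis1 and testis2. Each list came from chromatin immunoprecipitation with sequencing (ChIP-seq, which reads the DNA bound to a protein) and held the regions enriched for CENP-A at 1 testis label. All peaks of both lists were taken, 12707 from testis1 and 14781 from testis2, or 27488 of the 163819 peaks in the 12 lists of the series. The other 10 lists, used here only to place the testis peaks, were testis3, ovary1, ovary2, ovary3, embryos (0hr, 46hr, 60hr, 5day and 7day) and L1 larvae. Both testis groups carry no treatment, and the labels give neither strain nor age. They do not say what the testis numbers stand for or how the tissue was divided, and the files hold no gene by which the tissue could be checked. Each group has 1 single-end and 1 paired-end library, and nothing says that they came from separate animals, so every p-value measures only the spread between these libraries.

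CENP-A is the histone H3 variant that replaces H3 in centromeric nucleosomes and on which the kinetochore is built. Chromosomes of *Ascaris* are holocentric: CENP-A lies along their length, and microtubules attach along it, rather than at 1 constriction. Somatic precursor cells of the early embryo discard part of the germline genome (programmed DNA elimination), and the discarded DNA is lost during those divisions. Germ cells keep the whole genome, so in testis the DNA later kept and the DNA later discarded are both present. The authors marked each peak retained or eliminated according to that later fate. In bulk tissue, fewer cells that carry CENP-A at a place and less CENP-A there per cell cannot be told apart.

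Depth was known only inside peaks. The libraries of testis1 held 3994828 and 4092641 reads in peaks, and those of testis2 held 4921778 and 9470225. The read density of a peak is given as reads per kb per 1000000 reads in the peaks of that library (below, reads per kb). The columns of a list correlated at 0.899 in testis1 and 0.896 in testis2 over the log of this density, a description across peaks of shared width and position. Density falls by construction where a list covers more sequence, since the scaled reads are spread over more kb. Intervals of shares cover counting error only.

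Testis2 carried CENP-A peaks over more of the genome than testis1. Testis1 peaks covered 38.4 Mb, or 13.5% of the 284 Mb that peaks of all lists span, on 392 scaffolds. Testis2 peaks covered 47.0 Mb, or 16.5%, on 450 scaffolds. The median peak was 1836 bp wide in testis1 (quartiles 1115 and 3743 bp) and 2091 bp in testis2 (1285 and 3788 bp). The upper quartiles lay close together while the lower quartile was higher in testis2. Testis1 had 488 peaks under 200 bp and testis2 227, and both lists reached down to 1 bp. At the wide end, 578 testis1 peaks and 618 testis2 peaks were at least 10 kb, and the widest were 35389 and 46891 bp. Without peaks under 500 bp the medians differed by 146 bp instead of 255 bp. Each stage has 1 peak list for both libraries, so neither width nor peak presence has a replicate. Both testis2 libraries also had more reads in peaks than the testis1 libraries, and a link of covered length to depth was not tested.

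By base pairs, about as much testis1 sequence was shared with testis2 as was not. The lists shared 20.98 Mb, while 17.5 Mb lay in testis1 peaks alone and 26.0 Mb in testis2 peaks alone. This gave a Jaccard index (shared length over joint length) of 0.326, where the list lengths alone would allow up to 0.819. Among the 66 pairs of the 12 lists the pair ranked 16. Testis1 was nearer to ovary1, at 0.422, than to testis2, and testis2 had 0.229 with ovary1. Shared sequence made up 54.6% of the testis1 length and 44.7% of the testis2 length.

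By peaks, 7843 of the testis1 list (61.7%, 95% Wilson interval 60.9% to 62.6%) overlapped a testis2 peak by at least 1 bp. Of the testis2 list 7759 (52.5%, 51.7% to 53.3%) overlapped a testis1 peak. The order of these shares turned when testis2 was trimmed by density to the covered length of testis1, to 52.1% of testis1 peaks and 58.4% of testis2 peaks. With at least 50% of both peaks required to overlap, the shares were 22.6% and 19.4%. Near the threshold, 188 shared testis1 peaks and 154 shared testis2 peaks overlapped by under 100 bp, and 58 and 53 unshared peaks lay within 100 bp of the other list. Unshared peaks were mostly well apart from the other list, with a median gap of 5817 bp for testis1 and 6923 bp for testis2. Another 100 testis1 peaks and 309 testis2 peaks were on scaffolds where the other list had none.

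Wide peaks were the common ones. Shared testis1 peaks had a median width of 2420 bp and unshared ones 1350.5 bp, and in testis2 the medians were 2808 and 1615 bp. In testis1 the shared percentage went from 39.0% below 500 bp to 94.5% at 10 kb or more. In testis2 it went from 27.5% to 93.4% over the same widths, and it was below testis1 in every width class. A wide peak has more chance to touch any other, and this was not corrected for. Unshared peaks were also less dense, at medians of 17.8 against 19.7 in testis1 and 16.0 against 18.9 in testis2. They still held 24.3% and 25.7% of the reads in peaks of the testis1 libraries, and 25.9% and 24.98% of those in the testis2 libraries.

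**Figure D1:**
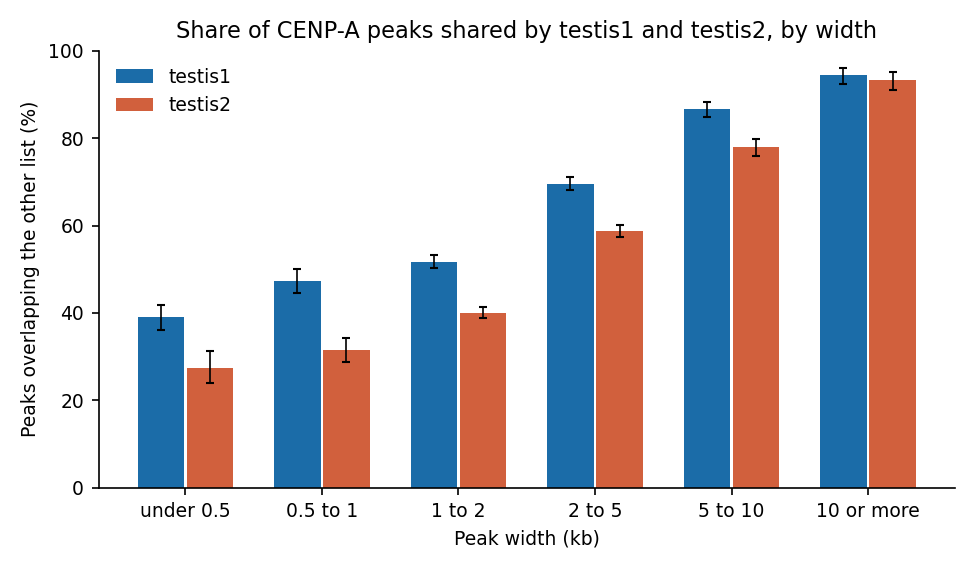
The share of peaks (%) that overlap the other list by at least 1 bp is plotted by peak width (kb) for testis1 and testis2, with 95% Wilson intervals as error bars. It climbs with width in both lists, to 94.5% in testis1 and 93.4% in testis2 at 10 kb or more.

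Where both lists had CENP-A, the peaks were often matched 1 to 1. Joining overlapping peaks of both lists gave 18131 loci, of which 6245 held peaks of both. Of these 6245, 4272 held 1 peak from each list, 815 held 1 testis1 peak and several of testis2, and 797 held the reverse. Another 361 held several of each. Of the 1-to-1 loci 2299 were wider in testis2 and 1973 in testis1, with a median width ratio of 1.05 (testis2 over testis1). None of the 18131 loci held peaks of both marks.

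The unshared sequence of testis1 and testis2 differed in where else it was found. Of the length covered in testis1 alone, 44.9% lay in ovary1 peaks, against 7.69% of the length covered in testis2 alone. Ovary1 peaks cover 10.1% of the span, above the testis2-only value. Sequence covered in both testis lists was in ovary1 peaks at 57.8%. The testis1-only value was the higher one in each of the 10 lists. The other gonad lists held 19.3% of it in testis3, 27.1% in ovary2 and 35.3% in ovary3, against 13.6%, 10.2% and 23.7% of the testis2-only length. In embryos and larvae the testis1-only share ran from 38.6% (7day) to 49.4% (60hr), and the testis2-only share from 22.1% to 30.3% in the same lists. In the ovary1 comparison the testis2-only share was 7.34% at equal covered length. Among peaks of at least median density it was 13.1%, above the 10.1% of the span, so its place below the span does not hold there, while the testis1-only share was 59.1%. No test was made, since each stage has a single list.

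**Figure D2:**
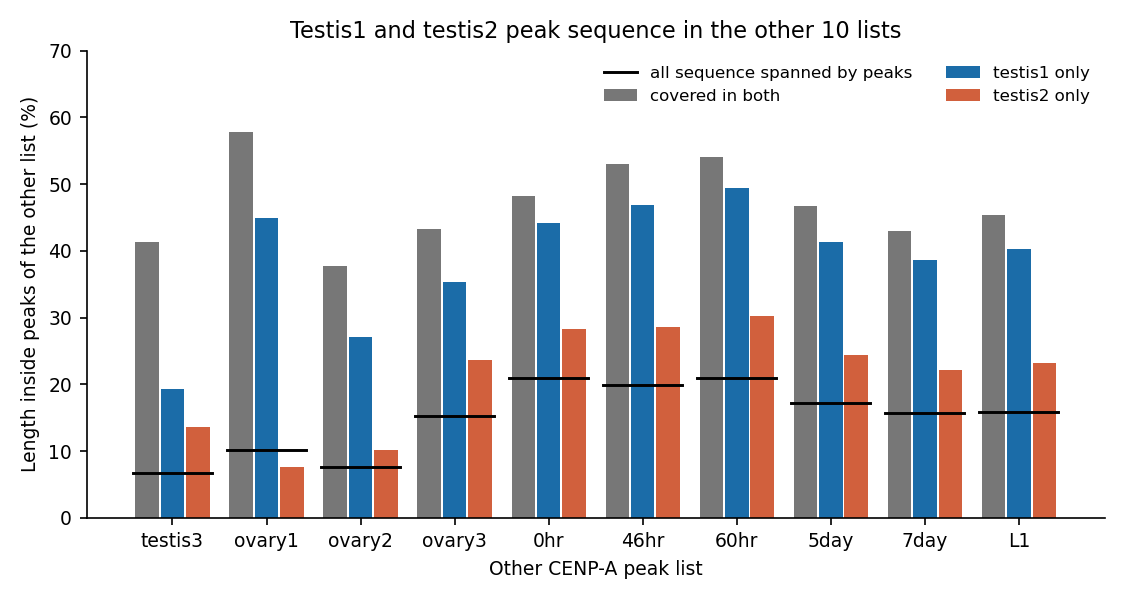
For each of the other 10 CENP-A lists (horizontal axis), bars give the percent of testis sequence inside that list's peaks, for sequence covered in both testis lists, in testis1 only and in testis2 only; black lines give the percent of all spanned sequence. Testis2-only sequence falls under the black line in ovary1 alone, at 7.69% against 10.1%.

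Peak by peak, unshared testis2 sites were also met by fewer lists. Of the 7022 unshared testis2 peaks, 2304 (32.8%, 95% Wilson interval 31.7% to 33.9%) met no peak of any of the other 10 lists. Of the 4864 unshared testis1 peaks, 706 did (14.5%, 13.6% to 15.5%). Among shared peaks the values were 6.52% in testis1 and 4.39% in testis2. The median unshared testis1 peak was met by 4 other lists, and the median unshared testis2 peak by 2. In all 10 other lists, 162 unshared testis1 peaks (3.33%) and 23 unshared testis2 peaks (0.328%) were found. Unshared testis2 peaks found nowhere else had a median width of 1417 bp, and those of testis1 1002.5 bp.

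Along the scaffolds, stretches with more CENP-A cover in testis2 were longer than stretches with more in testis1. The genome was divided into 14358 windows of 20 kb, and cover means the percent of a window inside peaks. Both lists had a peak in 5780 windows, testis1 alone in 1482, testis2 alone in 2072 and neither in 5024. Cover was at least 20 points higher in testis2 in 2011 windows and at least 20 points higher in testis1 in 1113. At equal covered length these counts were 1490 and 1434. Joining neighbours gave 1199 regions higher in testis2, of which 167 spanned at least 3 windows and the longest was 300 kb. For testis1 it gave 865 regions, of which 48 spanned at least 3 windows and the longest was 100 kb. At equal covered length, a setting chosen after the data were seen, stretches of at least 3 windows numbered 117 and 72, with the longest at 240 and 100 kb. In the 2011 windows higher in testis2 the mean testis1 cover was 14.1%, against 13.5% over all windows, so testis1 had CENP-A in such windows too. Windows with at least 60% cover numbered 1079 in testis2 and 684 in testis1, and 312 were in both.

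The 8 regions with the largest excess in testis2 were all wholly marked retained. Testis1 covered 8.60% to 25.3% of them and testis2 64.9% to 83.6%. The longest was on scaffold 81 from 200001 to 500000, where 21 testis1 peaks covered 25.3% and 37 testis2 peaks covered 71.2%. In RPM (reads per 1000000 reads in peaks of the library) its levels were 1827 and 1825 in the testis1 libraries and 5180 and 5064 in the testis2 libraries. The libraries of a list lay close together there and the lists did not overlap. The largest covered excess was on scaffold 9 from 1900001 to 2140000, at 14.9% in testis1 and 74.7% in testis2. The library values there were 719 and 763 RPM against 3700.5 and 3735. On scaffold 18 from 900001 to 1120000 cover was 22.7% and 83.6%, and the widest peak went from 12.6 kb in testis1 to 43.4 kb in testis2, while the number of peaks went from 21 to 16. There the testis2 peaks were fewer and wider.

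On scaffold 57 from 160001 to 300000 cover was 8.60% in testis1 and 72.6% in testis2, with 7 and 20 peaks. On scaffold 71 from 120001 to 340000 it was 9.55% and 64.9% (15 and 30 peaks), so here the number of peaks grew too. Scaffold 32 from 1440001 to 1680000 had 19.6% and 66.9%. Scaffold 93 from 740001 to 949967 had 13.8% and 66.8%, and scaffold 97 from 320001 to 520000 had 24.4% and 69.6%. In each of these 8 regions testis2 cover was above that of all 10 other lists, whose values ran from 6.73% to 47.1% with a median of 21.6%. The regions were picked by their testis2 excess and not by the other lists, so this standing is in part a product of that choice. The region on scaffold 71 was the sparsest elsewhere, between 6.73% and 14.7%. Among peaks of at least median density the difference went from 55.4 to 33.2 points on scaffold 71 and from 53.0 to 34.5 on scaffold 93. The coordinates are those of the authors' assembly, AgBionano_v1.9 by its scaffold names, and no gene annotation was used.

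Regions with the largest excess in testis1 were shorter, at 60 to 100 kb. Scaffold 23 from 160001 to 220000 was covered at 66.6% in testis1 by 6 peaks and at 1.60% in testis2 by 1 peak of 0.963 kb. Its libraries held 659 and 799 RPM in testis1 against 14.4 and 13.0 in testis2, far apart between the lists. Scaffold 32 from 180001 to 240000 had 64.5% and 2.17%. Here the sequence was covered in most other lists, at up to 69.1% in 60hr embryos, so testis2 was the exception. Scaffold 27 from 300001 to 360000 had 60.4% and 3.31%, and the highest of the other lists was ovary1 with 38.1%.

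The remaining regions higher in testis1 were on scaffold 55 from 1560001 to 1640000 (49.97% and 6.503%), scaffold 39 from 1680001 to 1760000 (52.2% and 8.83%), scaffold 50 from 680001 to 780000 (36.3% and 2.80%) and scaffold 44 from 960001 to 1040000 (57.5% and 17.7%). Only 1 of the 8 was marked eliminated, on scaffold 174 from 80001 to 160000. It had 50.8% and 4.08% cover, and its libraries held 16281 and 21050 RPM in testis1 against 177 and 168 in testis2. In 6 of the 8 regions testis1 cover was above that of all 10 other lists. Testis2 was under the median of the other lists in all 8. Both are in part products of picking the regions by their testis1 excess. Among peaks of at least median density the differences kept their sign and 5 of the 8 shrank by over 1.5 times: from -65.0 to -24.7 points on scaffold 23, from -43.5 to -19.1 on scaffold 55, from -33.5 to -15.3 on scaffold 50, from -43.4 to -28.4 on scaffold 39 and from -39.8 to -25.9 on scaffold 44.

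**Figure D3:**
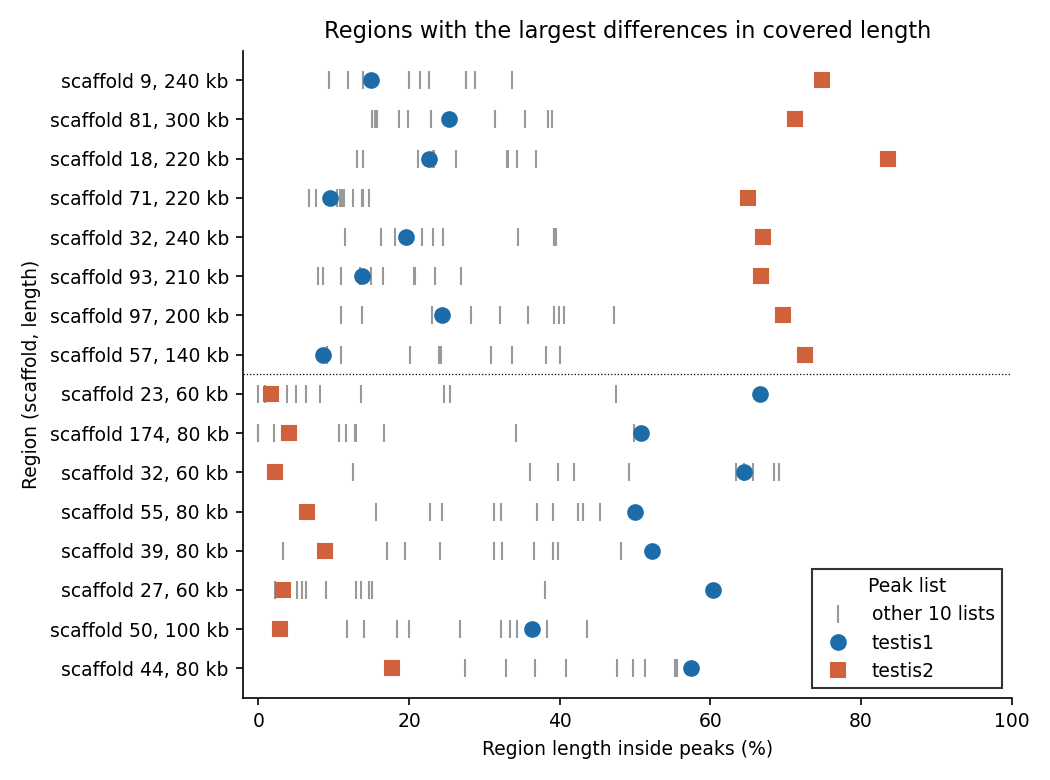
Percent of region length inside peaks is plotted for the 8 regions with the largest covered excess in testis2 (above the dotted line) and the 8 with the largest excess in testis1 (below it); circles are testis1, squares testis2 and ticks the other 10 lists. Above the line all testis2 values are at 64.9% or more and right of every tick, in regions picked by their difference between testis1 and testis2.

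Reads were tested in the 5778 windows that had a peak in both lists and enough reads. With edgeR's quasi-likelihood test and Benjamini-Hochberg adjustment over these windows, 4592 passed 0.05, or 79.5%. Of all windows tested 42.6% were higher in testis2 (2461) and 36.9% higher in testis1 (2131). With TMM scaling the counts were 2320 and 2258, and with DESeq2's size factors 2185 and 2175, so the excess towards testis2 depends on the scaling. Reads in a window move with the length called as peak, so calls in the regions above add nothing to their choice. All windows of those 16 regions that could be tested were called in the direction of their cover.

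Differences reached the scale of whole scaffolds. Of the 317 scaffolds of at least 100 kb, 180 had more cover in testis2 and 133 more in testis1. By at least 10 points, 33 scaffolds totalling 31.4 Mb were higher in testis2 and 10 totalling 2.26 Mb were higher in testis1. Those 33 made up 11.05% of the span and held 25.9% of the length covered in testis2 alone. With testis2 trimmed to the covered length of testis1 the counts became 19 and 20, so the imbalance in number rests on the longer testis2 list. Among peaks of at least median density they were 15 and 6.

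Where large scaffolds had at least 10% cover in testis1, their cover spread more widely in testis2. Of the 88 scaffolds of at least 1 Mb, 65 had at least 10% cover in testis1. Over these 65, cover was 17.4% ± 2.45 in testis1 (SD between scaffolds, n = 65), from 10.6% to 22.9%. In testis2 it was 22.03% ± 7.78 (SD between scaffolds, n = 65), from 5.29% to 51.8%. Testis2 was higher on 43 of them and testis1 on 22. The other 10 lists had SDs from 1.85 to 5.04 points over the same 65 scaffolds, below that of testis2. Since the 65 were picked by testis1 cover, which runs from 3.12% to 22.9% over all 88, the narrow range of testis1 is in part a product of that choice.

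The other 23 large scaffolds, 53.5 Mb in all, had little of their length inside CENP-A peaks in either list. Low cover did not always mean few reads. Scaffold 35, with 8.44% and 4.24% cover, took 1.79% and 1.49% of testis1 reads and 0.787% and 1.03% of testis2 reads. Cover of the 23 was 5.64% ± 1.77 in testis1 and 5.78% ± 2.12 in testis2 (SD between scaffolds, n = 23), with testis2 higher on 12 and testis1 on 11. In 22 of the 23 both lists were under 10%. In testis3 their cover was also low, at a mean of 1.77% against 8.97% on the other 65. The means were 9.75% against 11.4% in ovary1, 6.24% against 9.36% in ovary2 and 16.2% against 16.5% in ovary3. In embryos and larvae they ran from 13.7% (L1) to 25.9% (0hr), against 18.3% and 22.2% in those 2 lists on the other 65.

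**Figure D4:**
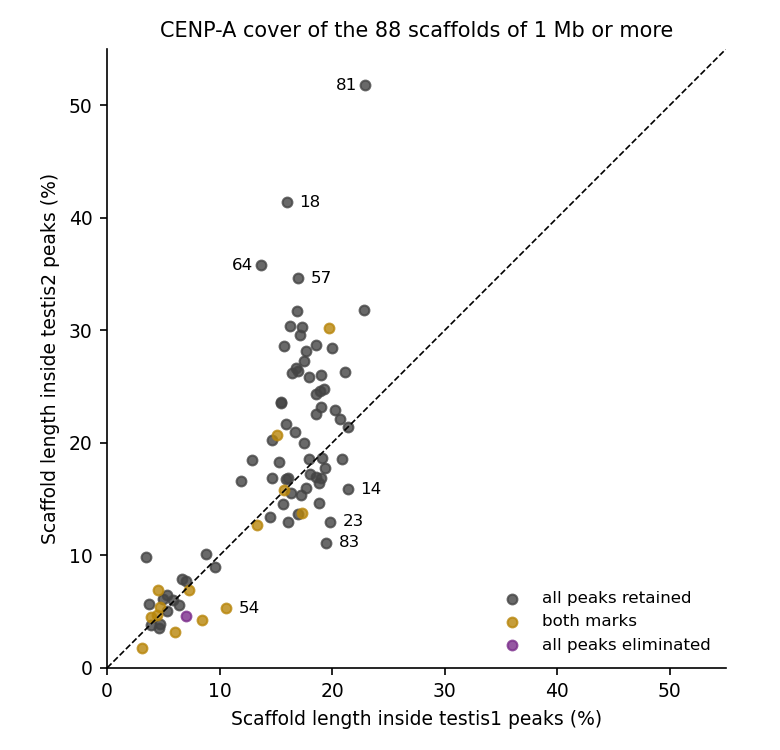
Each point is 1 of the 88 scaffolds of at least 1 Mb, placed by the percent of its length inside testis1 peaks (horizontal) and testis2 peaks (vertical), coloured by the marks of its peaks, with the line of equal cover dashed. Testis1 stays between 10.6% and 22.9% on 65 scaffolds while testis2 runs from 5.29% to 51.8%, and 23 scaffolds sit near the origin in both.

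Scaffold 81 (1102 kb) had the highest testis2 cover of the large scaffolds, 51.8% against 22.9% in testis1. It took 0.557% and 0.560% of the reads in testis1 peaks and 1.29% and 1.26% of those in testis2 peaks. Scaffold 18, of 3.22 Mb, had 16.0% in testis1 and 41.4% in testis2. It took 1.06% and 1.13% of testis1 reads and 2.73% and 2.70% of testis2 reads. The excess ran along the whole of scaffold 18: in steps of 200 kb, testis2 was higher in 17 of 17, and by at least 20 points in 10. It was higher in 6 of 6 steps on scaffold 81 (by at least 20 points in 4) and in 7 of 7 on scaffold 64 (in 3). It was higher in 7 of 9 steps on scaffold 57 (by at least 20 points in 4) and in 9 of 11 on scaffold 37 (in 4). On scaffold 9 it was higher in 17 of 21 steps, and by at least 20 points in 5 of them.

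Among scaffolds of at least 100 kb, the largest gain in cover was on scaffold 218 (175 kb), from 14.3% to 61.3%. Scaffold 327 (107 kb) had 34.1% and 71.5%, and scaffold 110 (670 kb) 15.2% and 45.1%. Scaffold 201 (233 kb) had 0 peaks in testis1 and 28 peaks in testis2, covering 30.8%. In the other 10 lists at most 3.68% of scaffold 201 was in peaks, and 5 of them had 0. All 5 of these scaffolds, 81 included, were wholly marked retained.

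In the other direction, scaffold 148 (421 kb) had 22.7% in testis1 and 4.73% in testis2, and scaffold 174 (314 kb) had 29.4% and 12.3%. Both carry peaks of both marks. Scaffold 204 (207 kb), wholly marked eliminated, had 10 peaks and 13.9% in testis1 and 0 peaks in testis2. Its cover was 28.2% in ovary3 and 28.4% in 0hr embryos. The wholly retained scaffolds 225 and 298 had 32.2% against 16.7% and 34.4% against 21.2%.

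By reads, 358 scaffolds had peaks in both lists. In edgeR's quasi-likelihood test with Benjamini-Hochberg adjustment, 262 of them passed 0.05, or 73.2%. Of all those tested 40.5% were higher in testis1 (145) and 32.7% higher in testis2 (117). With TMM scaling the counts were 129 and 133, so the order of the directions depends on the scaling. Scaffold 218 had 0.0547% and 0.0554% of reads in testis1 and 0.213% and 0.212% in testis2. Its log2 fold change was 1.95 ± 0.07 (SE; adjusted p = 1.58e-05, edgeR). Scaffold 174 had 1.86% and 2.40% of reads in testis1 against 0.154% and 0.144% in testis2. Its log2 fold change was -3.84 ± 0.14 (SE; adjusted p = 1.58e-05, edgeR). Scaffold 158, wholly marked eliminated, had 1.76% and 2.04% against 0.275% and 0.309%, and a log2 fold change of -2.70 ± 0.10 (SE). In each of these 3 the libraries of a list lay together and the lists did not overlap. They were picked by their ratio among called scaffolds, so this separation adds nothing to their choice. Reads of a scaffold also move with the length called as peak.

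DNA that the embryo later discards carried less of the CENP-A signal in testis2. Peaks marked eliminated numbered 449 in testis1 (3.53% of peaks) and 238 in testis2 (1.61%). They held 12.4% (95% Wilson interval 12.3% to 12.4%) and 13.2% (13.1% to 13.2%) of the reads in peaks of the testis1 libraries. In the testis2 libraries they held 3.68% (3.66% to 3.70%) and 4.50% (4.49% to 4.51%). Both testis1 libraries were above both testis2 libraries, with means of 12.8% ± 0.560 and 4.09% ± 0.579 (SD, n = 2 each), a ratio of 3.12. Columns of 1 label lay further apart in testis3, at 8.81% and 3.82%, and closer in ovary3, at 8.23% and 8.38%. An exact permutation test (two-sided, 6 splits) gave p = 0.333, the lowest value that this test can give for 2 libraries against 2, so it cannot pass 0.05 here. Leaving out each library in turn left a difference of 8.28 to 9.10 percentage points, against 8.69 with all 4.

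The lower share came with fewer and shorter covered stretches. Eliminated peaks covered 1262 kb in testis1 and 534 kb in testis2, while the covered length of retained peaks was higher in testis2. Cover was 10.4% and 4.39% in eliminated spans, and 13.7% and 17.1% in retained sequence. So the classes moved in opposite directions between the lists. Of the 449 eliminated testis1 peaks, 302 (67.3%) met no testis2 peak, against 37.2% of retained testis1 peaks. These 302 peaks held 63.3% and 67.7% of the eliminated reads in the testis1 libraries. In testis2 it was the reverse: 69 of 238 eliminated peaks (29.0%) met no testis1 peak, against 47.8% of retained ones. Unshared eliminated testis1 peaks lay at a median of 27757 bp from the nearest testis2 peak, and the retained ones at 5333 bp. Of the 302, 50% met a peak in ovary3 and 43.0% in 0hr embryos, while 20.2% met no peak of the other 10 lists. For unshared retained testis1 peaks these shares were 42.6%, 53.4% and 14.1%. For eliminated testis1 peaks shared with testis2 they were 82.3%, 60.5% and 3.40%.

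Eliminated peaks fell into 67 blocks, where consecutive peaks of that mark on a scaffold, over all 12 lists, form 1 block. Both lists had peaks in 35 blocks, testis1 alone in 13, testis2 alone in 2 and neither in 17. Testis1 covered more in 43 blocks and testis2 in 7. Among the 30 blocks of at least 100 kb the counts were 27 and 3. The block with the most covered length, on scaffold 35 from 89994 to 1634608, had 59 testis1 peaks and 11 testis2 peaks, covering 8.18% and 1.67%. It took 1.35% and 1.11% of testis1 reads and 0.397% and 0.594% of testis2 reads. The second block, on scaffold 163 from 1072 to 340424, had 25 and 29 peaks covering 26.0% and 18.5%, so testis2 had more peaks there and less cover. On scaffold 54 from 683853 to 1534231 cover was 11.4% and 1.64%, with 38 and 6 peaks. On scaffold 84, wholly eliminated, the lists were closer, with 26 and 22 peaks covering 7.01% and 4.65%. Scaffold 129, also wholly eliminated, had 13.9% and 6.58%, and the block of scaffold 148 had 23.9% and 3.26%. The 3 large blocks with more cover in testis2, named after their values were seen, were on scaffold 263 (14.1% and 23.1%), scaffold 208 (11.2% and 14.9%) and scaffold 35 from 2019469 (3.37% and 8.38%).

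**Figure D5:**
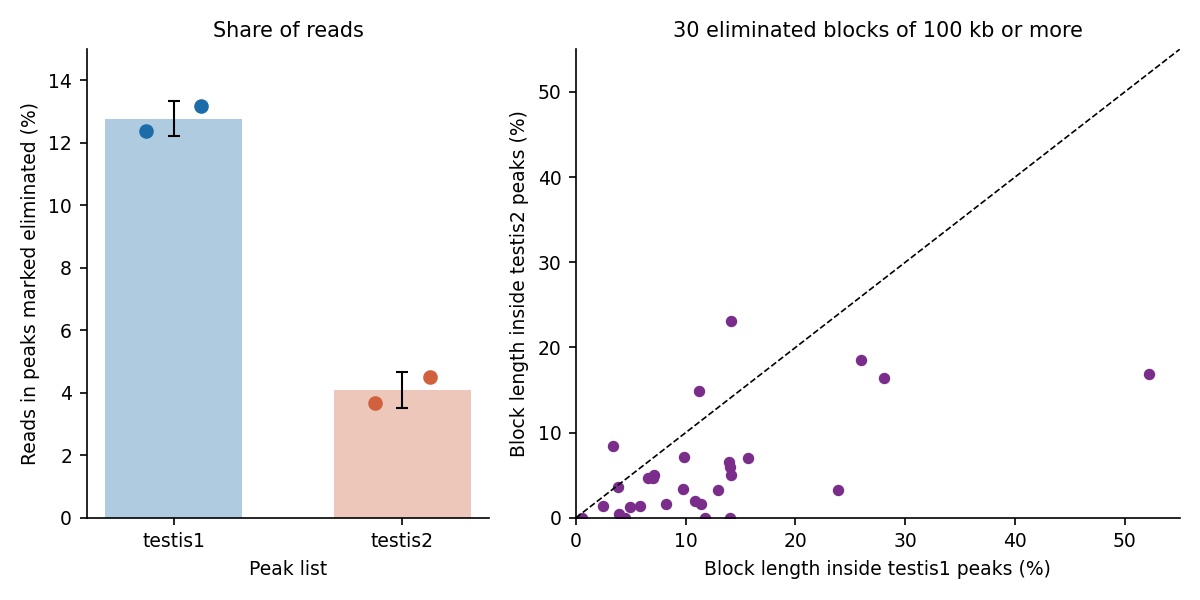
Left, the percent of reads in peaks that lie in peaks marked eliminated, with 1 point per library, bars at the mean and error bars of 1 SD (n = 2); right, the percent of length inside peaks for the 30 eliminated blocks of at least 100 kb, testis1 against testis2, with the line of equal cover dashed. The testis1 libraries stand at 12.4% and 13.2% and the testis2 libraries at 3.68% and 4.50%, and 27 of 30 blocks lie below the line.

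A few peaks carried much of the eliminated reads. The 10 peaks with the most reads held 28.3% and 27.8% of them in the testis1 libraries and 33.3% and 38.1% in the testis2 libraries. Without those 10 peaks of each list the eliminated share was 8.88% and 9.51% in testis1 and 2.45% and 2.79% in testis2, so the lists still did not overlap.

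Read density within shared loci was close between the lists at the median. At 6245 loci with peaks of both lists, reads per kb were compared in edgeR's quasi-likelihood test with the covered kb of each list as an offset. After Benjamini-Hochberg adjustment 1168 loci passed 0.05, or 18.7%. Of all loci tested 14.3% were denser in testis1 (891) and 4.44% denser in testis2 (277). The median log2 ratio over all loci was -0.07. A ratio of at least 2-fold was reached by 164 of the 891 and 35 of the 277. With DESeq2's size factors the counts were 494 and 271, and without the length offset 2145 and 2410, so the excess of calls towards testis1 depends on counting reads per kb.

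These counts lean on single libraries. Without testis1 replicate 1, 19 loci were denser in testis1 and 4 in testis2, where the lone testis1 library is assumed to vary like the testis2 pair. Without testis1 replicate 2 they were 419 and 102, and without testis2 replicate 2 585 and 167.

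Among loci marked eliminated that both lists held, 22 of 144 were denser in testis1 and 21 in testis2, or 15.3% and 14.6%, against 14.3% and 4.44% of all loci. Their median log2 ratio was -0.03, close to the -0.07 of retained loci. Eliminated DNA differed between the lists in the number of peaks, the length covered and the share of reads. The median density ratio of shared loci lay near that of retained loci, but it leaves out unshared peaks. In 2 blocks, named after their values were seen, reads and length moved unalike. On scaffold 174 from 39056, 66.2 and 21.4 kb took 1.79% and 2.32% of testis1 reads and 0.102% and 0.0971% of testis2 reads. On scaffold 293, 28.8 and 16.8 kb took 0.370% and 0.143% against 0.339% and 0.397%. By whole scaffold, 12 of the 14 wholly eliminated scaffolds with peaks in both lists were higher in testis1 by reads and 1 was higher in testis2, against 40.5% and 32.7% of all scaffolds. On the 33 scaffolds with at least 10 points more cover in testis2 the 935 shared loci had a median log2 density ratio of 0.03, and the remaining 5310 of -0.09.

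Single loci showed density ratios that ran with and against their width. On scaffold 9 from 42607 to 46174, the libraries had 15.8 and 15.7 reads per kb in testis1 and 59.9 and 119 in testis2. The locus was of similar width in both lists, 3.00 kb and 3.57 kb. Separate libraries were a condition for naming these loci, so that they do not overlap adds nothing. Its log2 ratio was 2.51 ± 0.26 (SE; adjusted p = 0.000191, edgeR). On scaffold 59 from 1235180 to 1238643 the densities were 46.3 and 53.1 in testis1 and 199 and 142 in testis2 (log2 ratio 1.77 ± 0.17, SE). No peak of the other 10 lists met the locus on scaffold 59. It covered 3.43 kb in testis1 and 1.20 kb in testis2, and by reads per locus its log2 ratio was 0.26.

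Narrower peaks in testis2 were also seen at 4 other loci denser in testis2. On scaffold 127 from 196126 to 201967, in eliminated DNA, 5.84 kb were covered in testis1 and 1.54 kb in testis2. Its density was 33.3 and 41.3 in testis1 and 125 and 163 in testis2 (log2 ratio 1.95 ± 0.16, SE), while by reads per locus the log2 ratio was 0.03. The loci on scaffold 132 from 34883 (1.71), scaffold 151 from 36697 (1.58) and scaffold 10 from 3008353 (1.55) were also narrower in testis2. By reads per locus the log2 ratio was 0.66 on scaffold 132 and 0.27 on scaffold 151, where the call was lost, and on scaffold 10 it was -0.084, the opposite sign. The calls on scaffolds 9, 59, 132 and 10 were lost without testis1 replicate 1, with log2 ratios between 1.41 and 2.51.

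Over all 891 loci called denser in testis1 the log2 ratio reached 6.76 in size. Loci were named only with at least 1 kb covered in both lists and separate libraries. Of the 6 named, the largest ratio per kb was on scaffold 183 from 217634 to 223365. Its densities were 106 and 264 in testis1 and 18.2 and 24.5 in testis2, so the testis1 libraries differed from each other by more than the testis2 libraries did. The log2 ratio was -3.11 ± 0.32 (SE; adjusted p = 0.000191, edgeR), over 1.16 kb in testis1 and 5.15 kb in testis2. By reads per locus it was -0.96, and without testis1 replicate 2 -2.31, both still called. By reads per locus the largest of the 6 was on scaffold 5, at -3.45. On scaffold 54 from 748389 to 755360, in eliminated DNA, the densities were 158 and 153 in testis1 and 50.5 and 35.4 in testis2 (log2 ratio -1.86 ± 0.17, SE). The locus on scaffold 10 from 3166061 to 3178897, also eliminated, was broad in both lists, 12.8 kb and 11.04 kb. Its densities were 76.3 and 76.1 in testis1 and 26.7 and 22.96 in testis2 (log2 ratio -1.62 ± 0.14, SE). On scaffold 5 from 2851810 to 2862013 they were 51.2 and 49.0 against 21.4 and 10.8 (-1.67 ± 0.23, SE), at a locus that met a peak in each of the other 10 lists. That call was lost without testis1 replicate 1. The other 2, on scaffold 178 from 50654 and on scaffold 148 from 212481, had log2 ratios of -1.52 and -1.51.

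The 3 shared loci of highest density were all in eliminated DNA. On scaffold 35 from 1278781 to 1281835 density was 911 and 823 in testis1 and 1831 and 2913 in testis2, with no overlap between the lists (log2 ratio 1.45 ± 0.20, SE; adjusted p = 0.00096, edgeR). By reads per locus the ratio was 0.41 and not called. Without testis1 replicate 1 or 2 the call was lost at log2 ratios of 1.53 and 1.38, near the full value. On scaffold 293 from 35690 to 36893 the testis1 libraries had 1991 and 151.5 and the testis2 libraries 2412 and 3036, and the locus did not pass (log2 ratio 1.35; adjusted p = 0.20, edgeR). Its call depended on the fit: it passed at 2.28 with the replicate number as a block, at 4.17 without testis1 replicate 1 and at 1.503 and 1.17 without testis2 replicate 1 or 2, and not without testis1 replicate 2 (0.45). On scaffold 84 from 308688 to 310097 they had 1856 and 595 against 655 and 1724, so the lists overlapped (adjusted p = 0.959, edgeR). At both loci the 2 testis1 columns disagreed with each other by a wide margin.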

How the data were processed

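Per the labels, CENP-A ChIP-seq was made with 1 single-end and 1 paired-end library per stage. The submitters' processing notes list Bowtie2 and MACS2, whose versions and settings are not given in the sources used here. The deposited tables give, per peak, counts of reads in whole numbers that the authors had not scaled, as 1 peak list per stage with columns rep1 and rep2, per the file headers. The headers leave unstated which column is single-end, any filter on peaks, and whether starts count from 0 or 1. Starts and ends are printed as deposited, and windows count from 1. Inputs, CENP-C and histone mark libraries were not analysed here.

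Peak length is end minus start. Scaffold length is the last peak end over the 12 lists. A locus is a run of overlapping peaks of both lists. Windows were 20 kb, or at least 5 kb at scaffold ends, and reads of a peak were spread evenly over its length and rounded. Loci, windows and scaffolds with peaks in both lists were tested with edgeR 4.0.16 (R 4.3.3; quasi-likelihood test, filterByExpr, library size set to reads in peaks, Benjamini-Hochberg adjustment). The SE of a log2 ratio was taken from its size and the F statistic. In simulated counts for 6245 loci, 92% of those changed by 1 on the log2 scale were recovered. Of the calls made on those loci, 9 were false, or 4.48%. Simulated windows gave 11 false calls (5.21% of calls) and simulated scaffolds 5 (11.1% of calls). The window and scaffold shares thus lay above the threshold set for adjusted p-values, that of scaffolds by the most. The simulation used 1 common dispersion for each kind of unit. At each log2 size, 1 or 2, it changed 100 loci, 100 windows and 20 scaffolds. In the data 18.7% of loci, 79.5% of windows and 73.2% of scaffolds were called. The simulated rates therefore cannot be carried over to these data. DESeq2 1.42.0 was an alternative. The eliminated share was tested with an exact permutation test, two-sided.

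The regions named were the 8 per direction with the largest difference in covered length, the 6 loci per direction with the largest ratio among called loci of at least 1 kb in both lists with separate libraries, the 5 scaffolds per direction by cover and 3 by reads, the eliminated blocks with the most covered length and the 3 loci of highest density. The members and lists were chosen with earlier results of these data known. Step-wise cover of scaffolds 81, 18, 64, 57, 37 and 9 was added after their values were seen. No sequence is shown, since no genome was used here.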

Additional observations from a re-analysis of the deposited data

How the results depend on the processing

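With at least 50% of its own length in the other list, 48.8% of testis1 and 38.2% of testis2 peaks were shared, and with 50% reciprocal overlap 22.6% and 19.4%. Among peaks of at least median density the Jaccard index was 0.304 and the shares 54.6% and 48.5%, and at equal covered length the shares were 52.1% and 58.4%. Ranking that density without 1 library at a time gave Jaccard indices of 0.288 to 0.311, testis1 shares of 51.9% to 55.8% and testis2 shares of 46.4% to 49.2%. The width difference was 217.5 bp at median density, 477 bp at equal length, 146 bp from 500 bp and 206 bp from 200 bp. Shared loci denser in testis2 and testis1 were 4 to 193 and 19 to 758 without 1 library, 2410 and 2145 without the length offset, and 155 and 391 with at least 50% shared length. DESeq2 called 494 denser in testis1. Windows higher in testis2 and testis1 were 1565 and 1368 at 50 kb, and 4515 and 3614 with a peak in at least 1 list. They were 2320 and 2258 with TMM scaling and 2185 and 2175 with DESeq2. Stretches of at least 3 windows were 102 and 31 at median density. Scaffolds higher by 10 points were 15 and 6 at median density and 19 and 20 at equal length, and 13.1% of testis2-only length lay in ovary1 at median density. By reads per locus the locus on scaffold 10 from 3008353 had a log2 ratio of -0.084. The uncalled locus on scaffold 84 changed sign, to 0.024 with DESeq2, 0.017 with the replicate block and 0.015 with the crossed block, and ranged from -0.90 to 1.00 without 1 library at a time. The cause was not tested.

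Same-numbered columns tended to deviate in opposite directions (correlations of -0.18, -0.18 and -0.29 over loci, windows and scaffolds). Deviations thus ran together between columns of unlike number. Since the headers leave unstated which column is single-end, a link to library type was not tested. The main tests used no block. With the replicate block, loci denser in testis2 and testis1 were 263 and 860, windows 2430 and 2085, and scaffolds 117 and 134. The crossed pairing, chosen after seeing the data, gave 596 and 1373 loci, 2531 and 2203 windows, and 119 and 150 scaffolds. Of the values for named loci under alternatives, 162 kept direction and side of the threshold, 11 lost and 6 gained the call and 6 changed sign. Named scaffolds by reads kept theirs in 99 of 99, and named regions kept their direction in all 48 values, 7 of which moved. Depth outside peaks is unknown, so a list without a peak at a place does not show that CENP-A is absent there.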
